A study of Mus musculus with 13 samples.

Results

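The genes of 3 Janus kinases (Jak1, Jak2 and Jak3) and 6 signal transducers and activators of transcription (Stat2, Stat3, Stat4, Stat5a, Stat5b and Stat6) were examined for acetylation of histone H3 lysine 27 (H3K27ac), which marks promoters and enhancers in use. These 9 genes were chosen by name, and a gene's data were the called H3K27ac islands that overlapped its mm10 span or 1 kb on either side. All 9 had an island in at least 1 library, out of 14658 protein-coding genes with an island and 21900 in the annotation. Chromatin immunoprecipitation with an antibody to H3K27ac was sequenced in 13 libraries of primary bone marrow-derived macrophages from C57BL/6 mice, grown in L929-conditioned medium and taken on day 7 of differentiation. In the cytokine experiment, 1 of 7 libraries held untreated cells. The other 6 held cells treated for 2 h or 4 h with IL-4 (interleukin-4) at 10 ng/ml, with IFNγ (interferon-γ) at 100 ng/ml, or with the 2 together. In the knockdown experiment, 6 libraries held cells with a scramble shRNA, shJunB or shCEBP-beta, each untreated or given IFNγ for 4 h at the same dose of 100 ng/ml. Each condition had 1 library, and the labels do not say how many animals or cultures stood behind a library or how far either factor was depleted.

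Cytokine receptors of this class have no kinase of their own. Ligand binding brings together receptor-bound Janus kinases, which phosphorylate the receptor tails and then the STAT proteins that dock there, and the STAT dimers move to the nucleus and bind DNA. The IFNγ receptor works through Jak1 and Jak2, and in macrophages it drives inflammatory activation. The IL-4 receptor works through Jak1 and Jak3 and through Stat6, and drives alternative activation.

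On GRCm38 the kinase genes lie apart, with Jak1 at chr4:101151974-101265282 (minus strand), Jak2 at chr19:29251803-29313095 (plus strand) and Jak3 at chr8:71676383-71690577 (plus strand). The STAT genes fall into 2 neighbourhoods and 1 lone gene. Chromosome 11 holds Stat3 at chr11:100886806-100939594 (minus strand), Stat5a at chr11:100859351-100885169 (plus strand) and Stat5b at chr11:100780731-100859004 (minus strand). Chromosome 10 holds Stat2 at chr10:128270498-128292853 (plus strand) and Stat6 at chr10:127642955-127660987 (plus strand), and chromosome 1 holds Stat4 at chr1:51987106-52107189 (plus strand).

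Library depth was 14.3 to 37.4 M reads, with 65.1% to 80.0% of reads in 27993 to 33705 islands per library, and the shallowest library was scramble with IFNγ. The called length was 176 to 206 Mb among cytokine libraries, and it was longer among knockdown libraries, at 218 to 244 Mb. All 8 macrophage marker genes had an island in all 13 libraries, with a summed level of 31670.0 to 58372 normalised reads. Summed levels of the other cell lists were 1747 to 10514 for T cells (4 of 5 genes with an island in any library, Cd3g in none), 1205 to 7401 for B cells (3 of 4, Pax5 in none) and 1009 to 3798 for dendritic cells (3 of 3). For neutrophils they reached at most 1941 (2 of 4, Ly6g and S100a9 in none). They reached at most 183 for NK cells (1 of 3, Ncr1 and Eomes in none), 167 for mast cells and basophils (3 of 4, Fcer1a in none) and 51.8 for fibroblasts (1 of 3, Col3a1 and Pdgfra in none), and each of these 3 lists was at 0 in at least 1 library. The part of these lists in the results was not tested. In bulk chromatin, fewer cells carrying a mark and less mark per cell cannot be told apart. Fits treated libraries as samples of a condition, so their p-values measure the spread between these libraries only.

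Levels were first compared per kb of gene window, as reads inside the gene and its 1 kb flanks after scaling each library (inside reads). An island's reads were taken in proportion to its length in the window, so a long island enters with its average density. Stat6 had the highest level in all libraries, 99.1 to 155 inside reads per kb (median 129). Its range did not meet that of any other gene. Of the reads of its islands 13.8% to 36.3% were assigned inside, so this level rests on the average density of islands that ran past the gene. Below it the medians were 36.4 for Stat5b, 33.3 for Jak3, 29.2 for Stat3, 26.0 for Jak1, 22.4 for Stat2, 17.0 for Stat5a and 11.3 for Jak2, and the ranges of neighbours in this order overlapped. Stat4, a factor best known from T cells and NK cells, was lowest, at 0 to 8.35 inside reads per kb (median 2.53), and had no island in its window in either library with IL-4 alone.

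The main value of a gene was the sum of all reads of its islands, divided by a size factor per library (normalised reads). An island that runs on past the gene brings outside reads into this sum, so inside reads are given beside it. Of the normalised reads of Jak1, Stat3 and Stat5b at least 84.4% lay inside in every library. For Stat6 the share was 13.8% to 36.3%, and for Jak2 it was 17.4% to 83.8%. Jak1 shared an island with Raver2 in 1 library, and Stat5a shared islands with Stat5b, which starts next to it on the other strand. Stat2, Stat6, Jak3 and Stat4 shared islands with neighbouring genes, and Jak2 and Stat3 with none.

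**Figure D1:**
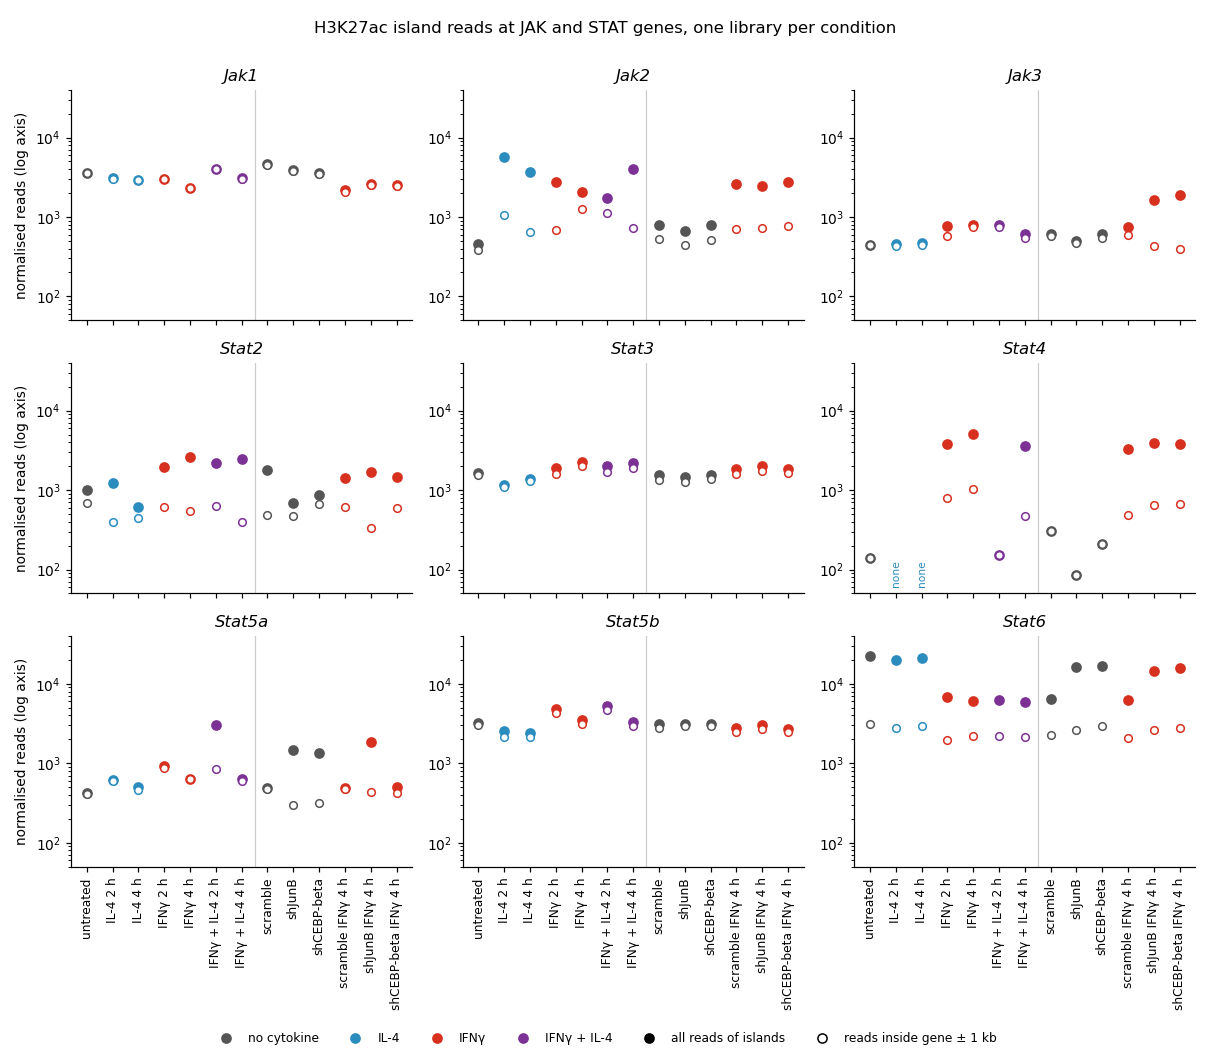
Normalised H3K27ac reads of each gene (log axis) by library, as all reads of its islands (filled) and as reads inside the gene and 1 kb either side (open), with 1 point per library. Jak2 is lowest in untreated cells in both measures, Stat4 has no island with IL-4 alone, and the 2 measures part most at Jak2, Stat2, Stat4 and Stat6.

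Jak2, the kinase bound to the second chain of the IFNγ receptor, had the largest rise with IFNγ for 4 h of the 3 kinases, and its single libraries with IL-4 were also higher than untreated cells. In the cytokine experiment it had 461 normalised reads in untreated cells, 5682 and 3711 with IL-4 at 2 h and 4 h, 2744 and 2066 with IFNγ, and 1732 and 4020.0 with both. In the knockdown experiment it had 795 reads in scramble cells and 2578 with IFNγ, 666 and 2437 in shJunB cells, and 786 and 2777 in shCEBP-beta cells. Every library with a cytokine thus stood above every library without one, and the share of all genes with such a split was not computed. The additive fit over the 7 cytokine libraries called neither cytokine, with an IFNγ term of 0.31 (SE 0.79, adjusted p = 0.83, and -0.71 to 1.07 leaving out 1 library) and an IL-4 term of 1.28 (SE 0.79, adjusted p = 0.50). IFNγ for 4 h raised Jak2 over the 4 backgrounds by 1.89 on the log2 scale (SE 0.13, edgeR adjusted p = 0.0047), and by 0.85 in inside reads (adjusted p = 0.032). Of the genes tested in this fit 14.7% were higher and 17.3% lower, against 3 and 1 of these 9, with a median of 0.37 over the 9 and of -0.02 over all genes. In inside reads 2 of the 9 were higher and 1 lower.

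Islands reached further upstream of the Jak2 start with a cytokine. In untreated cells the island ran from 2.0 kb before the start to 4.2 kb after it, a length of 6.2 kb, at 74.4 normalised reads per kb. The islands that stayed within 5.2 kb upstream, with IFNγ at 4 h and with both cytokines at 2 h, had 194 and 206 reads per kb. Over all Jak2 islands the knockdown pairs differed little without and with IFNγ: 97.0 and 102 (scramble), 83.3 and 90.9 (shJunB), 91.4 and 107 (shCEBP-beta). It was 187 and 125 with IL-4, 107 with IFNγ at 2 h and 133 with both at 4 h. A long island has 1 count, so its density around the start is not known. With IL-4 the island at the start began 25.8 kb (2 h) and 25.6 kb (4 h) before the start, with both cytokines at 4 h 25.8 kb before it, and with IFNγ at 2 h 19.2 kb before it. In the 3 knockdown libraries with IFNγ it began 17.6 to 17.8 kb before the start, against 3.6 to 4.0 kb without IFNγ. Within the stretch from 17.8 kb before to 4.6 kb after the start, called in at least 7 libraries (an element; elements were defined after the islands had been seen), reads rose with IFNγ at 4 h from 532 to 2624, from 1008 to 2485, from 793 to 2284 and from 1053 to 2673. The change of this element was 1.61 (SE 0.19, adjusted p = 0.0024), where 13.1% of all elements tested were higher and 11.2% lower. Without a cytokine the island at the start reached at most 4.0 kb upstream. The extent of the element thus came largely from libraries with a cytokine, and this test is not independent of it. With IL-4 alone the element had 4186 and 2739 reads, and with both cytokines 3286 and 2955, which was between the 2 single-cytokine libraries at 2 h (2531 with IFNγ) and above both at 4 h. The interaction of the 2 cytokines was -2.43 (SE 0.42) but missed the threshold after adjustment (edgeR adjusted p = 0.17). Where an element had to be called in at least 10 libraries, the Jak2 element was shorter and its change with IFNγ was 2.44 (adjusted p = 0.00096). A second island inside the gene, near 22.6 to 25.0 kb from the start, was called in 5 of 7 libraries with IFNγ, in neither library with both cytokines and in none of the 6 without IFNγ. Its levels were low, 54.9 to 167 normalised reads.

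**Figure D2:**
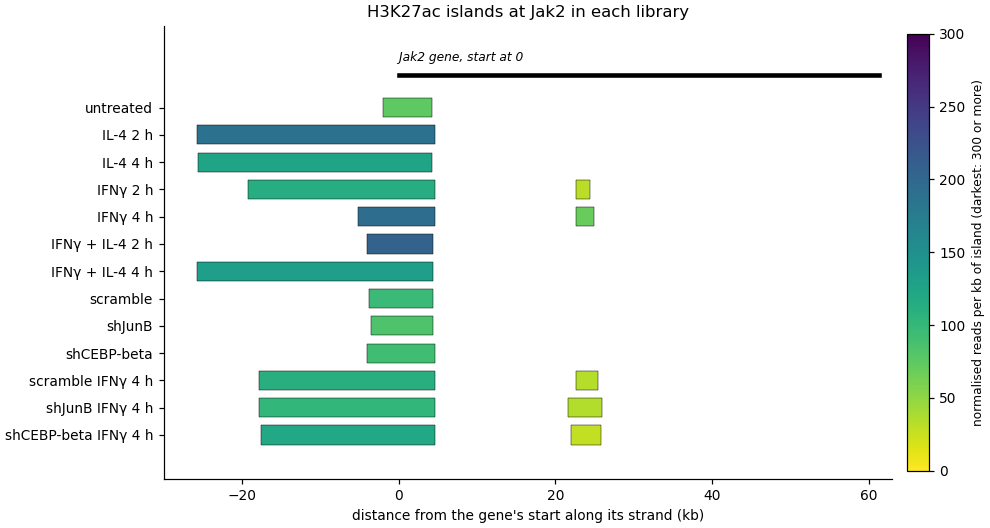
Called islands at Jak2 in each library, by distance from the gene's start in kb, coloured by normalised reads per kb of island. The island at the start is 6.2 kb long in untreated cells and reaches 25.8 kb upstream with IL-4, and the small island inside the gene is seen in 5 libraries with IFNγ. Where the island at the start is short with IFNγ at 4 h and with both cytokines at 2 h, the upstream reads lay in islands that did not touch the gene or its 1 kb flank.

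The promoter of Jak2 is shown because it lies inside the island in all 13 libraries and the reads of the islands rose with IFNγ. It is a stretch of 300 bases that ends 50 bases into the gene, at chr19:29251553-29251852 on the plus strand (RefSeq, GRCm38.p6), with 81.0% G and C and 44 CpG pairs.
Jak2: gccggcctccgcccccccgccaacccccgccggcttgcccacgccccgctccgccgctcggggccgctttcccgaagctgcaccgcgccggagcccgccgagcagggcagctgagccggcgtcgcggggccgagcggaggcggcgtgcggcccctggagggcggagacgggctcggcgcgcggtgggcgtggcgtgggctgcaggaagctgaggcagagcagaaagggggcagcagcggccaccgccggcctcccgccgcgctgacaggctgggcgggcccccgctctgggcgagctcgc
3 motifs were searched on both strands of such promoters: the gamma-activated site bound by most STAT dimers (GAS, TTCNNNGAA), the same site with a spacer of 4 bases preferred by Stat6 (TTCNNNNGAA), and the interferon-stimulated response element (ISRE, TTTCNNTTTC) bound by Stat2-containing complexes and interferon regulatory factors. The first is held by 8.3% of 32851 mouse promoters of this length, the second by 6.95% and the third by 3.44%. No match lies in this Jak2 window. The 9 genes had 12 such promoters, with no GAS match, 1 match with the longer spacer and 2 ISRE matches.

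Jak1, the kinase shared by the IFNγ, IL-4 and many other receptors, moved the other way with IFNγ. Its islands lay in up to 9 elements over 113 kb of gene. Untreated and IFNγ 4 h libraries had 3582 and 2322 normalised reads in the cytokine experiment, 4585 and 2195 in scramble cells, 3904 and 2562 in shJunB cells, and 3573 and 2521 in shCEBP-beta cells. All 4 pairs were lower with IFNγ, and IFNγ lowered Jak1 by 0.70 on the log2 scale (estimate -0.70, SE 0.14, adjusted p = 0.022), with the same size in inside reads (adjusted p = 0.012). Leaving out the scramble, shJunB or shCEBP-beta pair gave adjusted p of 0.071, 0.076 and 0.069. At 2 h the libraries had 3026 reads with IFNγ and 4054 with both cytokines, and the IFNγ term over the 7 cytokine libraries was -0.03 (SE 0.24, adjusted p = 0.94).

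The loss of Jak1 acetylation was uneven along the gene. At the promoter element the levels were 328 and 390.0 normalised reads without and with IFNγ in the cytokine experiment, 554 and 740 in scramble cells, 652 and 510 in shJunB cells and 506 and 651 in shCEBP-beta cells, with no change called (0.17, adjusted p = 0.51). In the element 77.9 to 84.9 kb into the gene reads fell in every pair, from 669 to 311, 778 to 276, 640 to 362 and 662 to 290, a change of -1.15 (SE 0.16, adjusted p = 0.0039). In the element at the 3′ end, 103.9 to 111.7 kb from the start, they fell from 642 to 236, 515 to 272, 347 to 229 and 400 to 280 (-0.87, SE 0.19, adjusted p = 0.018). Without the scramble or the shJunB pair the adjusted p of this end element was 0.072 and 0.051. The element in the gene body had 305 and 331 reads with IL-4 at 2 h and 4 h, as low as with IFNγ. The end element instead had 837 and 1127 reads with IL-4, 314 and 236 with IFNγ, and 643 and 587 with both, near the 642 of untreated cells. Its IL-4 term was 0.94 (SE 0.22, adjusted p = 0.18) and its IFNγ term -0.90 (SE 0.22, adjusted p = 0.057), and neither passed after adjustment. An element 40.5 to 43.5 kb into Jak1 was called in 5 of 7 libraries with IFNγ and in none of the 6 without.

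**Figure D3:**
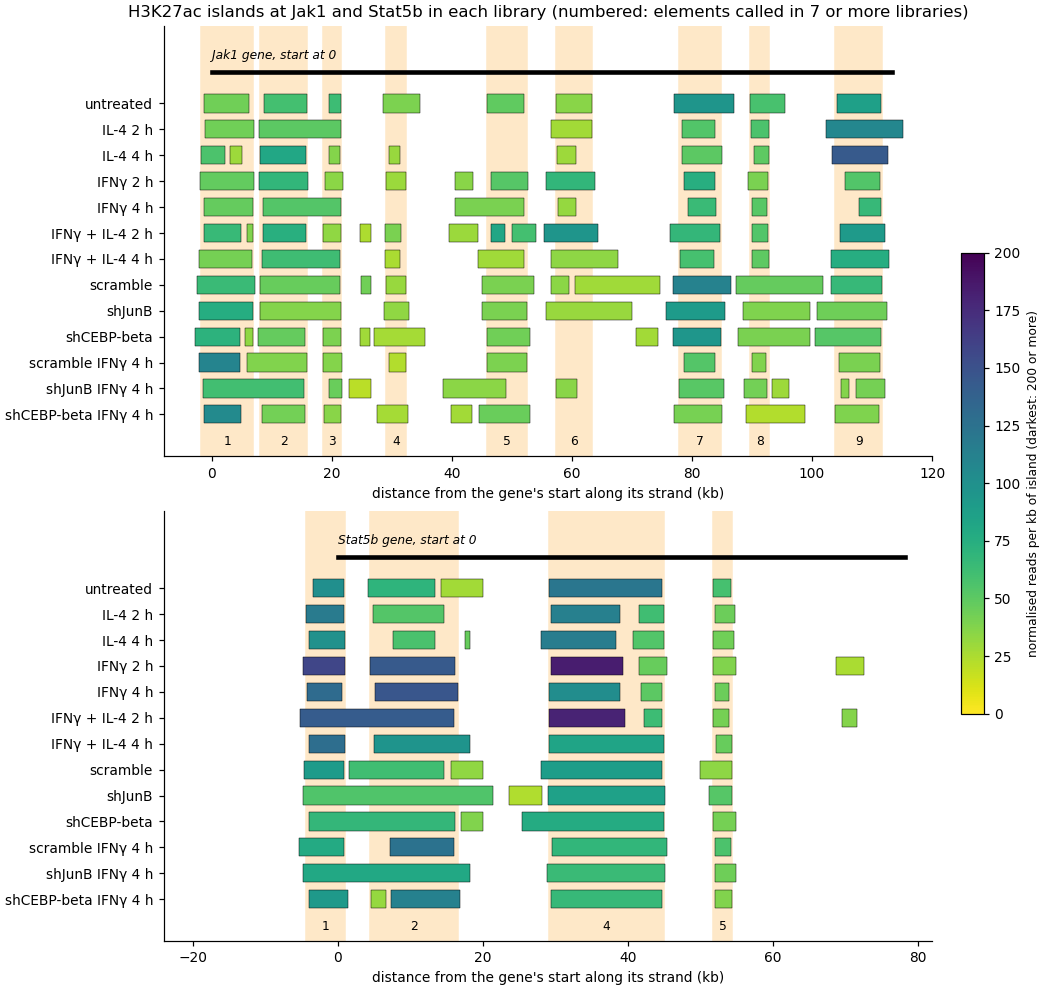
Called islands at Jak1 and Stat5b in each library, by distance from the start in kb along the gene's strand, coloured by normalised reads per kb. Jak1 elements 7 and 9 are paler with IFNγ at 4 h in each background, and at Stat5b element 2 is darker with IFNγ.

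Jak3, the kinase paired with the common gamma chain of the IL-4 and related receptors, had a single island at its start in every library. In the cytokine experiment it had 438 reads in untreated cells, 456 and 469 with IL-4, 772 and 798 with IFNγ, and 801 and 613 with both. The IFNγ term was 0.70 (SE 0.15, adjusted p = 0.0504), just short of the threshold. Over the 4 backgrounds Jak3 was called higher with IFNγ (1.14, SE 0.28, adjusted p = 0.040), but inside reads gave no call. In shJunB and shCEBP-beta cells with IFNγ the island ran 14.0 and 13.6 kb upstream into Unc13a, and the totals went from 501 to 1655 and from 603 to 1876. Inside reads were 473 and 434 in the shJunB pair, 539 and 401 in the shCEBP-beta pair and 583 and 587 in the scramble pair, with a change of 0.06 (adjusted p = 0.86). Without the cytokine, shJunB or shCEBP-beta pair the adjusted p of the total was 0.078, 0.11 and 0.12.

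Stat4, which relays IL-12 in lymphocytes, had the largest change of the 9 in island totals, but not over union regions or with 10 kb flanks, where Jak2 was larger. Its normalised reads without and with IFNγ for 4 h were 138 and 5123, 309 and 3319, 86.3 and 3888, and 212 and 3767. At 2 h it had 3862 reads with IFNγ and 154 with both cytokines, and at 4 h it had 3588 with both. These totals depend on whether an island past the 3′ end touched the 1 kb flank. The element there, 120.3 to 140.5 kb from the start, was called in all 13 libraries, with 1134 to 1614 reads in the 6 without IFNγ and 2903 to 4193 in the 7 with it. The share of all elements with such a split was not computed. With both cytokines at 2 h this end element had 2903 reads, against 3237 with IFNγ alone. The change of the Stat4 total with IFNγ over the 4 backgrounds was 4.56 (SE 0.45, adjusted p = 0.0068). In 6 of the 7 libraries with IFNγ an island of 17.0 to 20.4 kb that began near the 3′ end of Stat4 and ran towards the next gene, which was not analysed here, supplied 2949 to 4193 of these reads. With inside reads the change was 2.01 (SE 0.41, adjusted p = 0.014), and counting only islands that touch the gene itself it was 2.49 (adjusted p = 0.053). Over union regions, merged across libraries, it was 1.25 (SE 0.16, adjusted p = 0.0032), against 2.09 for Jak2. With 10 kb flanks it was 1.28 (SE 0.17, adjusted p = 0.0087), against 1.55 for Jak2.

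Inside Stat4 most islands fell into 3 places. The first, which holds a second RefSeq start, was covered by elements 20.3 to 22.7 kb and 23.5 to 27.9 kb from the annotated start, called with and without IFNγ. The second lay near 68.3 to 71.9 kb and was called with IFNγ at 2 h and 4 h and with both at 2 h. The third, an element 112.1 to 114.9 kb from the start, was called in 6 of 7 libraries with IFNγ at 78.6 to 98.2 reads and in none of the 6 without. Of 26 elements of the 9 genes called in at least 4 libraries, 4 (15.4%) were called in at least 4 libraries with IFNγ and in none without, against 8.03% of all elements. They were the Jak1 and Jak2 elements above and 2 at the end of Stat4. In the other direction, 1 element of 0.2 kb in Stat5b was called in 4 libraries without IFNγ and none with it, against 3.18% of all elements. The promoter at the second Stat4 start is shown because it holds 1 of the 2 ISRE matches, in capitals, 97 to 88 bases before the start (chr1:52007990-52008289, plus strand).
Stat4, second start: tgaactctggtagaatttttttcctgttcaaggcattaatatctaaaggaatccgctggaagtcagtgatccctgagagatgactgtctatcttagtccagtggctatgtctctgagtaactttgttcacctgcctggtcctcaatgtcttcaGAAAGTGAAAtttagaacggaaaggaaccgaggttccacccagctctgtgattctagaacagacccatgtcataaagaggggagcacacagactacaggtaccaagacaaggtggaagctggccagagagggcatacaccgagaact

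Stat2, which joins Irf9 in the complex that answers type I interferons, was called higher with IFNγ in an element that reaches upstream of its start, and not in its total. Totals were 1001 normalised reads in untreated cells, 1238 and 609 with IL-4, 1977 and 2607 with IFNγ, and 2171 and 2439 with both. In scramble, shJunB and shCEBP-beta cells they were 1768, 692 and 862 without IFNγ and 1420, 1699 and 1442 with it, so the scramble pair went against the others. The total was not called over the 4 backgrounds (0.78, SE 0.33, adjusted p = 0.13), nor were inside reads (-0.17, adjusted p = 0.47). An element from 12.7 kb before to 2.3 kb after the start, where islands join those of Apof, Apon and Timeless, rose in all 4 pairs. Its reads went from 1504 to 2607, 961 to 1356, 984 to 1517 and 965 to 1360 (0.60, SE 0.13, adjusted p = 0.015). Where elements had to be called in at least 10 libraries, the element shrank towards the start and the change was 0.06 (adjusted p = 0.87). With the rule of 7 libraries its upstream extent could be set by the 7 libraries with IFNγ, so the call is not independent of how the element was defined. Leaving out the scramble, shJunB or shCEBP-beta pair gave adjusted p of 0.054, 0.063 and 0.056.

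The Stat2 promoter (chr10:128270248-128270547, plus strand) is shown because it alone among the 12 holds both an ISRE match, 222 to 213 bases before the start, and a match of the site with the longer spacer, 210 to 201 bases before it. Both are in capitals and do not overlap.
Stat2: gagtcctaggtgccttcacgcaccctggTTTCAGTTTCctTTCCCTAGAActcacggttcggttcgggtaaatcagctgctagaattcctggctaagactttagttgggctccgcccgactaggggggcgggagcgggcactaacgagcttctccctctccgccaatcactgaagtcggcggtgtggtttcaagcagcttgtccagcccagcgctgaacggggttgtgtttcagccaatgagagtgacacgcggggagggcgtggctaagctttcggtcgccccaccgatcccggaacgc

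Stat5b and Stat5a, close relatives that relay growth factors such as GM-CSF, start next to each other on opposite strands and share the element at their starts. The total of Stat5b covered elements that moved in opposite directions. It had 3260 reads in untreated cells, 4858 and 3550.1 with IFNγ, 5238 and 3335 with both, and 2558 and 2415 with IL-4, and the 4 pairs at 4 h of IFNγ gave -0.07 (SE 0.11, adjusted p = 0.66). The element 4.4 to 16.6 kb into the gene rose from 698 to 1668, 660 to 1099, 675 to 981 and 793 to 1099 (0.75, SE 0.17, adjusted p = 0.018). The element 29.2 to 45.0 kb into the gene fell from 1890 to 1163, 1399 to 1051, 1368 to 1020 and 1224 to 1011 (-0.45, SE 0.13, adjusted p = 0.044). The first of these was also called in the 7 cytokine libraries (1.52, SE 0.26, adjusted p = 0.025), where it had 1702 reads with IFNγ and 1658 with both at 2 h against 523 and 333 with IL-4, and 4.42% of all elements were higher and 2.11% lower. At 2 h the second stood at 2000 reads with IFNγ and 2042 with both, no lower than the 1890 of untreated cells. The first lost its call over the 4 backgrounds where elements needed only 4 libraries (0.39, adjusted p = 0.11) and without the scramble or shJunB pair (adjusted p 0.071 and 0.055). The second lost it under library-total scaling (adjusted p = 0.062), with elements of at least 10 libraries (0.10) and without any 1 of the 4 pairs (0.055 to 0.13). In the cytokine libraries the first kept its direction without any 1 library (1.33 to 1.70), with adjusted p of 0.051 to 0.095 in 6 of 7 cases.

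Each of these 2 Stat5b elements holds a RefSeq start of its own, and the promoters are shown because their composition differs. The first, 8.4 kb into the gene (chr11:100850532-100850831, minus strand), has 82.7% G and C and 50 CpG pairs. The second, 36.4 kb into the gene (chr11:100822521-100822820, minus strand), has 47.3% and 7 pairs. Neither holds a match of the 3 motifs.
Stat5b, start in the element that rose: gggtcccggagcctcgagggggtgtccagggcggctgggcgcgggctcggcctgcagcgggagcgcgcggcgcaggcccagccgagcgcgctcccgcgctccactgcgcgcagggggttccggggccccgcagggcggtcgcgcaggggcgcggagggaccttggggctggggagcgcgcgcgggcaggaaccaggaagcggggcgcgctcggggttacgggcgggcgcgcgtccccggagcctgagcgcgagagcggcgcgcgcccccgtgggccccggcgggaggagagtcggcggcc
Stat5b, start in the element that fell: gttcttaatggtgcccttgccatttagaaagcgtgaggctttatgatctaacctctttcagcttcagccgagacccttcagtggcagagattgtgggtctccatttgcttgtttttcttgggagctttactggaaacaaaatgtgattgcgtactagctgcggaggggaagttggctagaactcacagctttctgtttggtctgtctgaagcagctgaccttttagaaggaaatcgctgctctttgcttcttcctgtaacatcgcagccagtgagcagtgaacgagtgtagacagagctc

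**Figure D4:**
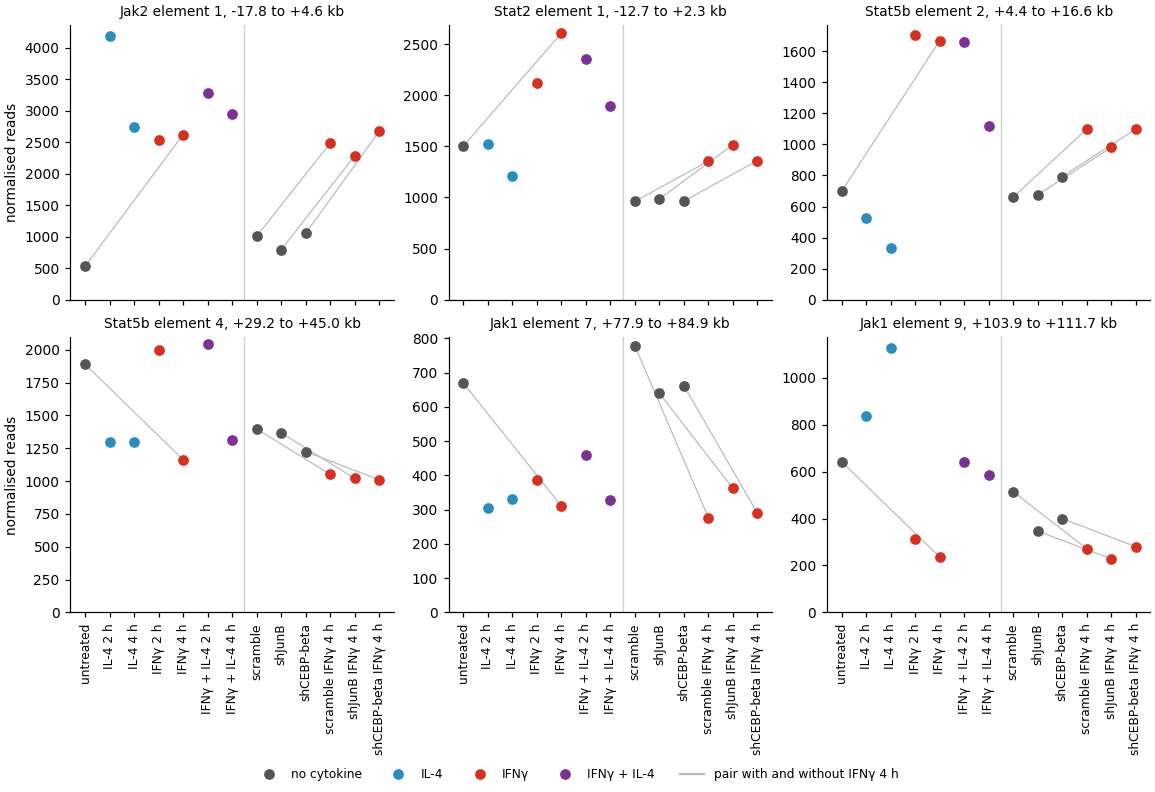
Normalised reads of 6 elements by library, with grey lines joining the pair with and without IFNγ for 4 h in each background. Jak2 element 1, Stat2 element 1 and Stat5b element 2 go up in all 4 pairs, while Stat5b element 4 and Jak1 elements 7 and 9 go down, and Jak1 element 9 is highest with IL-4.

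Stat5a had 424 normalised reads in untreated cells, 610 and 498 with IL-4, 920 and 629 with IFNγ, and 3030.4 and 643 with both. The value of 3030.4, and those of 1449 and 1849 in shJunB cells and 1357 in untreated shCEBP-beta cells, came from islands joined to Stat5b, where 20.8% to 27.6% of the reads lay inside. Inside reads without and with IFNγ were 408 and 629, 478 and 474, 301 and 438, and 312 and 429, a change of 0.40 (SE 0.14, adjusted p = 0.078).

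Stat3, which relays IL-6 and IL-10, gave small differences in the same direction throughout. The 7 libraries with IFNγ had 1826 to 2263 normalised reads and the 6 without had 1169 to 1637, with no overlap. It was the only 1 of the 8 genes with an island in all libraries for which this held, where 6.2% of all such genes had all libraries with IFNγ above and 2.86% had them all below. Neither the 4 backgrounds (0.37, SE 0.11, adjusted p = 0.057) nor the cytokine libraries (0.57, SE 0.19, adjusted p = 0.13) gave a call. A short element 34.2 to 35.4 kb into the gene was called in all 7 libraries with IFNγ, at 43.3 to 105 reads, and in none of the other 6. Elements had to be called in at least 7 libraries, so this stretch passed only through those with IFNγ. Its split is therefore not independent of that filter. It is part of a longer element called in all 13 when 4 libraries sufficed.

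Stat6, the main STAT of the IL-4 response, lay inside a broad domain that ran from 77.2 kb before to 36.8 kb after its start. It shared islands there with Lrp1, a lipoprotein receptor gene, and with Nab2 and Nemp1. Untreated cells had 22417 normalised reads and IL-4 libraries 19905 and 21166, in islands that began 67.6 to 74.8 kb before the Stat6 start. The 4 cytokine libraries with IFNγ had 5981 to 6823 reads, and their islands began 1.2 to 4.0 kb before the start. IFNγ lowered the total in the cytokine libraries by 1.77 on the log2 scale (estimate -1.77, SE 0.14, adjusted p = 0.0088), in a fit where 4.81% of genes were higher and 1.82% lower and Stat6 was the 1 member of 8 tested that was called. Inside reads were 3108 in untreated cells, 2758 and 2919 with IL-4, 1985 and 2196 with IFNγ, and 2228 and 2172 with both, and gave -0.45 (SE 0.16, adjusted p = 0.14). The whole domain, an element of 114.0 kb, had 22823 reads in untreated cells and 15525 to 22158 in the 4 cytokine libraries with IFNγ (-0.25, adjusted p = 0.29). Counting reads over regions merged across libraries gave -0.24 (adjusted p = 0.26), and widening the flank to 10 kb gave -1.02 (adjusted p = 0.11). In shJunB and shCEBP-beta cells the domain was unbroken with and without IFNγ (14724 to 16619 reads). In scramble cells it was broken in both states. The islands touching the Stat6 window held 6367 and 6182 reads there without and with IFNγ, and the whole domain held 15553 and 15797. Without IL-4 at 4 h the adjusted p of the cytokine term was 0.054. The difference in the IFNγ response at 4 h between the cytokine and the knockdown experiment did not pass the threshold, at -1.80 (SE 0.12, adjusted p = 0.051) in totals and -0.43 (SE 0.18, adjusted p = 0.24) in inside reads.

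**Figure D5:**
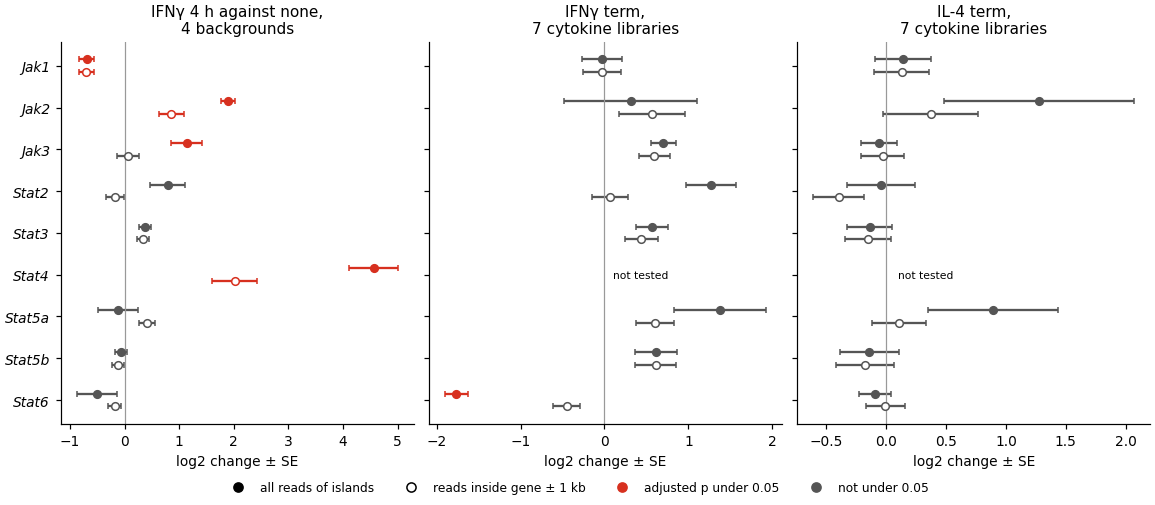
Change of each gene on the log2 scale with its SE in 3 fits, from all reads of islands (filled) and from reads inside the gene and 1 kb either side (open), with red for an adjusted p under 0.05. With IFNγ over the 4 backgrounds Jak1, Jak2 and Stat4 are red in both measures and Jak3 only in all reads of islands. Stat6 is red only in all reads of islands in the IFNγ term of the cytokine libraries, and no gene is red for IL-4.

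For single libraries against untreated cells there was no replicate, and the call rule was a 2-fold difference where the larger of both values reached 50 normalised reads. Among the 9 genes, 4 were called with IFNγ at 2 h (29.6% of all genes), 4 at 4 h (31.7%), 2 with IL-4 at 2 h (24.2%) and 2 at 4 h (22.7%). With both cytokines 4 were called at 2 h (29.9%) and 4 at 4 h (27.4%). Read against these shares, 2 to 4 of 9 is no result about these genes. Jak2 was 12.3-fold above untreated cells with IL-4 at 2 h (95% Clopper-Pearson interval 11.1 to 13.7, counting error only) and 5.95-fold with IFNγ (5.34 to 6.64), while in inside reads these were 2.71-fold and 1.78-fold. Stat6 with IFNγ at 4 h was at 0.271-fold (0.265 to 0.279), and at 0.706-fold in inside reads.

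For IL-4, the fit over the cytokine libraries called none of the 8 genes tested, where 0.463% of all genes were called in either direction. The largest IL-4 terms were those of Jak2, given above, and Stat5a (0.89, SE 0.54, adjusted p = 0.49), with errors too wide to show that IL-4 left them as they were. None of the 8 had an unadjusted p under 0.05 or was called by DESeq2, and Stat6 itself stood at -0.10 (SE 0.14). The interaction of both cytokines passed for no gene, with 1751 of 11655 genes at an unadjusted p under 0.05, and was largest at Jak2 (-3.09, SE 0.82, adjusted p = 0.22).

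The libraries labelled shJunB or shCEBP-beta gave no call among the 9 against scramble in edgeR. Across all genes shJunB gave 0 calls (0.0%, with 1205 of 12450 genes at an unadjusted p under 0.05 and 228 called by DESeq2) and shCEBP-beta gave 1 (0.00803%, with 551 and 83). DESeq2 called Stat5a (1.79) and Stat6 (1.31) higher with shJunB and Stat6 (1.38) higher with shCEBP-beta, all in totals of islands joined to neighbours. The Jak2 element had -0.23 (SE 0.13) with shJunB and 0.08 (SE 0.13) with shCEBP-beta, and Jak1 element 9 had -0.42 (SE 0.20) and -0.17 (SE 0.20). None of these was called.

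Other genes of the pathway were read from lists drawn up by role. Among 13 receptor chains, 1 was higher and 3 lower with IFNγ for 4 h over the 4 backgrounds (list median 0.20, all genes -0.02), where 14.7% of all genes were higher and 17.3% lower, so these counts are near the share over all genes. Il13ra1, a chain of the type II IL-4 receptor, rose by 2.00 (SE 0.16, adjusted p = 0.0050). Ifngr1, the ligand-binding chain of the IFNγ receptor, fell by 1.97 (SE 0.26, adjusted p = 0.010), from 4455 to 930 reads in the cytokine experiment and from 5871 to 947 in scramble cells. Il10rb fell by 1.08 (SE 0.26, adjusted p = 0.037). In the cytokine libraries 2 chains rose, Csf2rb (1.97, adjusted p = 0.014) and Il2rg (1.91, adjusted p = 0.010), the common gamma chain that carries Jak3, and 2 fell. In that fit 4.81% of all genes were higher and 1.82% lower. Without and with IFNγ in scramble, shJunB and shCEBP-beta cells, Csf2rb had 1034 and 1083, 931 and 1912, and 1037 and 1986 reads. Il2rg had 314 and 613, 564 and 628, and 1001 and 796 reads, lower with IFNγ in the last pair. The region of Csf2rb is shared with 1 other gene and that of Il2rg with 2. Tyk2, the remaining Janus kinase, rose by 1.41 (SE 0.15, adjusted p = 0.0072) and by 1.58 in the cytokine libraries (SE 0.31, adjusted p = 0.041), with 1373 and 4414 reads without and with IFNγ at 4 h. Its region is shared with 1 other gene.

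Of 18 inhibitors 16 could be tested, and 5 rose and 3 fell over the 4 backgrounds (median 0.44), beside 14.7% and 17.3% of all genes. The largest were Socs1 (3.97, SE 0.50, adjusted p = 0.0095), Socs3 (2.03, SE 0.25, adjusted p = 0.0089) and Usp18 (1.94, SE 0.19, adjusted p = 0.0067), all feedback inhibitors of cytokine or interferon receptors. The region of Socs1 is shared with 6 other genes, that of Socs3 with 2 and that of Usp18 with 1. Like Jak2, Socs1 was high with either cytokine, with 358 reads in untreated cells, 11862 and 9654 with IL-4, and 12899 and 16740.4 with IFNγ. Of 13 partners and targets 6 rose and 0 fell (median 0.78), beside the same shares. They were led by Irf8 (1.25, SE 0.30, adjusted p = 0.036), a factor of macrophage differentiation, Cdkn1a (1454 reads without and 3222 with IFNγ in the cytokine experiment, adjusted p = 0.047), a cell cycle inhibitor, and Bcl6 (1.19, SE 0.17, adjusted p = 0.012), a repressor. In the cytokine libraries Irf8 (1.85, adjusted p = 0.0098) and Irf1 (1.70, adjusted p = 0.0098) rose. With IL-4 none of the 43 tested genes of these lists was called.

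The 3 genes with the widest range over libraries were Jak2, Stat5a and Stat2 (3.62, 2.84 and 2.10 on the log2 scale) among the 8 with an island in all 13. The protein-coding genes most like Jak2 over the 13 libraries, out of 11507, were Mical2 (Pearson r = 0.95), Hspb7 (0.95) and Srarp (0.95). For Stat5a they were Chmp7 (0.80), Gm4925 (0.78) and Fbxo30 (0.75), and for Stat2 Tmem229b (0.92), Enah (0.92) and Phlpp2 (0.91). These values describe totals that share libraries and size factors.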

How the data were processed

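H3K27ac ChIP-seq of mouse macrophages was read from 13 lists of called islands, 1 per library. Bowtie2 2.2.6, SICER 1.1 and the builds mm10 and GRCm38 are named per the submitters' processing notes. The deposited lists give, per island, a count of ChIP reads, a count of control reads, a p-value, a fold over control and an FDR as a q-value. Islands were called per library by the authors, with at least 18 reads and an FDR of up to 0.00999, so weaker signal is not seen. Equal islands carried equal control reads in all lists (29680 of 29680). Reads of islands overlapping a gene or 1 kb either side were summed for 14658 protein-coding genes and divided by median-of-ratios size factors over 14347 regions called in all 13 libraries. Inside reads take an island's reads in proportion to its length in that window. Elements are runs of 200 bp bins called in at least 7 libraries, chosen after the islands had been seen. Their reads were taken in proportion to length in the same way. With IFNγ in 7 of the 13 libraries, an element's extent could be set by those libraries.

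Counts were tested with edgeR 4.0.16 (quasi-likelihood, R 4.3.3) over all genes or elements, with Benjamini-Hochberg adjustment and a threshold of 0.05, after tests on simulated data. The pairs fit used the 4 backgrounds as a block. The cytokine fit had an IFNγ and an IL-4 term over 7 libraries, and the knockdown fit an shRNA and an IFNγ term over 6. DESeq2 1.42.0, other scalings, windows and filters, and leaving out each library or pair were alternatives. Depth was 14.3 to 37.4 M reads per library. Promoters came from RefSeq (GRCm38.p6). All 9 genes are named by rule, and pathway genes by the largest called change. The members, lists and tests were chosen with earlier results of these data known.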

Additional observations from a re-analysis of the deposited data

Results flagged for a closer look

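Stat5b and the Jak3 element at its start moved in opposite directions in the 2 experiments in every pair with and without IFNγ. The mean log2 ratio of Stat5b was higher in the cytokine than in the knockdown experiment by 0.48. At 4 h, where both can be compared in 1 fit, the difference was 0.25 (SE 0.18, edgeR adjusted p = 0.47). For the Jak3 element the difference in mean ratio was 1.22, and at 4 h it was 1.41 (SE 0.35, edgeR adjusted p = 0.061). Element reads take an island's reads in proportion to length, and the Jak3 island was 17.6 and 16.0 kb long in shJunB and shCEBP-beta cells with IFNγ. Island totals of Jak3 rose with IFNγ in the knockdown pairs too, 1.23-fold in scramble, 3.30-fold in shJunB and 3.11-fold in shCEBP-beta cells. Inside reads in these pairs were 1.01-fold, 0.918-fold and 0.743-fold. With IFNγ at 2 h and 4 h in the cytokine experiment they were 1.33-fold and 1.72-fold. In shJunB and shCEBP-beta cells with IFNγ only 26.2% and 21.4% of the island reads lay inside. The measures differ, so a reversal of Jak3 acetylation between the experiments is not shown. The cytokine and knockdown libraries also differ in called length, 176 to 206 Mb against 218 to 244 Mb, and its part in these differences was not tested.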

How the results depend on the processing

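Over the fits of single genes, 496 values stayed on their side of the threshold under an alternative, of which 47 that did not pass changed sign, 16 gained a call and 12 lost one. For elements 39 kept their call and 21 lost it. Jak2 and its element, and Jak1 element 7, were called with IFNγ for 4 h over the 4 backgrounds under every alternative run. Genes called in that fit numbered 3787, against 5772 over union regions, 6006 with DESeq2 and 1103 to 3683 leaving out 1 pair, and 4 members were called, against 2 to 4 leaving out 1 pair. The IFNγ term called 773 genes, against 1286 over union regions, 3215 with DESeq2 and 14 to 512 without 1 library. It called 1 member, against 0 with inside reads, 3 over union regions, 2 with 10 kb flanks, 5 with DESeq2 and 0 to 2 without 1 library. The IL-4 term called 54 genes, against 1245 with DESeq2, 0 with a term for the 4 h libraries, 259 with an interaction term and 0 to 20 without 1 library. DESeq2 called 228 genes and 2 members with shJunB (edgeR 0 and 0). With shCEBP-beta it called 83 genes and 1 member (edgeR 1 and 0), while edgeR called 0 genes with inside reads, over union regions and with 10 kb flanks, and 2 where genes lacking an island in some libraries were filled in. Single library pairs gave 20 member calls, against 10 with inside reads, 13 over union regions and 8 per kb of called length. Stat2 against untreated cells changed sign with inside reads and per kb called: log2 ratios of -0.33 and -0.24 with IFNγ at 4 h, -0.14 and -0.054 with both at 2 h, and -0.79 and -0.70 with both at 4 h. Stat4 with IL-4 at 2 h became 0.079 over union regions, 0.13 with 10 kb flanks and 0.047 after subtracting control reads. For these changes the cause was not tested. The labels carry no replicate numbers, and the fit over 4 backgrounds pairs libraries by background. With 1 library per condition, single pairs carry counting error only, and a place with no island may hold signal below the calling threshold.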
